A study of Mus musculus with 8 samples.

Results

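Reactive astrocyte genes are transcripts that astrocytes raise when the brain is injured or inflamed. The 10 genes described here, Gfap, Vim, Serpina3n, Aspg, Cd44, Timp1, Lcn2, Steap4, Cp and S1pr3, were found by matching their symbols to the 43346 rows of the deposited gene table, and each matched 1 row. All 10 had enough counts to be tested. They were chosen as a known set and not by a measurement of these libraries, but results of these data were known when the set was drawn up. RNA came from the cortex and hippocampus of mice (Mus musculus) aged 1.5 months. The GFP group held 4 animals expressing enhanced green fluorescent protein (GFP). The GFP-GR100 group held 4 animals expressing the same protein fused to 100 repeats of glycine-arginine (GR), a dipeptide made from the expanded repeat of C9orf72 in frontotemporal dementia and amyotrophic lateral sclerosis. Each group had 2 females and 2 males, with 1 total RNA library per animal, and the construct sat in an adeno-associated virus (AAV) plasmid. The mouse strain, the promoter and the route and age of delivery are details not given in the sources used here.

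Astrocytes support neurons, take up glutamate and potassium and ensheath blood vessels. After injury they build up intermediate filaments, secrete protease inhibitors and acute-phase proteins and change their surface receptors, partly through cytokines of the interleukin-6 family that act on the shared receptor gp130 and the transcription factor STAT3. The 10 genes are the core of a widely used pan-reactive set, so called because its members rise in astrocytes after different kinds of injury. Several are not made by astrocytes alone. Vim is also made by vessel, meningeal and ependymal cells, Cd44 by leukocytes, Lcn2 by neutrophils, and Cp by the choroid plexus. In whole tissue, more astrocytes and more RNA per astrocyte cannot be told apart.

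Promoters are shown for 4 of the genes, because they set the 3 genes that rose beside 1 that did not and that carries the same motif as Gfap. Each runs 5′ to 3′ from 250 bases before to 50 bases after a gene start annotated by RefSeq on GRCm38.p6, and capitals mark a match on either strand to the STAT motif TTCNNNGAA. The window of Gfap, the astrocyte filament gene, is chr11:102897151-102897450 on the minus strand. That of Serpina3n, a serine protease inhibitor, is chr12:104406458-104406757 on the plus strand. That of Aspg, an asparaginase, is chr12:112106433-112106732 on the plus strand. That of Steap4, a metal reductase whose level did not pass the test, is chr5:7960222-7960521 on the plus strand.
Gfap: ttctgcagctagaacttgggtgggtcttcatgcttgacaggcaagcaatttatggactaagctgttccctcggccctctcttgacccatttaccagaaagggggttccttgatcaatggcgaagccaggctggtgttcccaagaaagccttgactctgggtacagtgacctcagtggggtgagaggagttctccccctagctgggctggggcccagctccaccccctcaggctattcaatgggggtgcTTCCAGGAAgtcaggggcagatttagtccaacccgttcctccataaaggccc
Serpina3n: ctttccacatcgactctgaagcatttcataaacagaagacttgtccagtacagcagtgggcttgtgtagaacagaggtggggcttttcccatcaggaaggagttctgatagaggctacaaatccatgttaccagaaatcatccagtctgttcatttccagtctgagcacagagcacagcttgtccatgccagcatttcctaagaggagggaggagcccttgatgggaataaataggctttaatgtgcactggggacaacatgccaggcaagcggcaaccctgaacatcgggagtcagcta
Aspg: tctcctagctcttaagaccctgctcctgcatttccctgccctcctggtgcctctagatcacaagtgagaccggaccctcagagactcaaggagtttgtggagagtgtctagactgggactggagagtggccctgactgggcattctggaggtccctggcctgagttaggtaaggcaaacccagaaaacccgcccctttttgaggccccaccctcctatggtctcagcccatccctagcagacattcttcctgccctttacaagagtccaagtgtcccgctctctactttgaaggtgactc
Steap4: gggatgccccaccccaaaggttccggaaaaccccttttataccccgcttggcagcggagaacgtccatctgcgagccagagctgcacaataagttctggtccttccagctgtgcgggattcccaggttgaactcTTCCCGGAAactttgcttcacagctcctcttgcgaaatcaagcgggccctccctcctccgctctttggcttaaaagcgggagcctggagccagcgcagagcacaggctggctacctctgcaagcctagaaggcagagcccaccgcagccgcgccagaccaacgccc

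All 10 genes had a window in the RefSeq table, and TTCNNNGAA was found in those of 2, Gfap and Steap4. The Gfap match starts 2 bases before the start and runs across it, and that of Steap4 starts 116 bases before the start. Both also match the tighter form TTCCNGGAA, which lies within the first motif and is held by 1.15% of the 32851 promoter windows of the same length, against 8.3% for TTCNNNGAA. The AP-1 motif TGANTCA (7.81% of windows) was found in 1 of the 2 windows of Cp and in none of the other genes, and GAAANNGAA, the core of the interferon response element (8.56% of windows), in none of the 10. These are matches of letters within these windows only. The Gfap window lies inside the deposited span of the gene, whose 5′ end is at 102900912, so the start used is not that end.

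Total counts per library ran from 65880460 to 89113010, which makes 3 counts worth 0.0337 to 0.0455 CPM, the unit of counts per common library total. The share of counts at loci holding ribosomal RNA sequence ran from 3.54% to 11.4% in GFP and from 2.76% to 9.83% in GFP-GR100 libraries. The tissue of the GFP-GR100 animals weighed 71.9 to 85.1 mg and that of the GFP animals 111.4 to 126.6 mg. Library GFP 3, from a male, stood apart from the other GFP libraries for Gfap and Serpina3n, and the log2 fold changes of the 10 genes are given below also without it. CPM below are scaled by TMM, a method that equalises most genes between libraries. Every call rests on the edgeR quasi-likelihood test with sex in the model and Benjamini-Hochberg adjustment over 20987 genes, at a threshold of 0.05.

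Of the 10 genes 3 rose in GFP-GR100, Gfap, Aspg and Serpina3n, and 0 fell. Over all tested genes 2.19% rose and 0.324% fell. The log2 fold change (GFP-GR100 against GFP) was above 0 for 8 of the 10, with a median of 0.43 against -0.02 over all tested genes, and ran from -0.05 for Steap4 to 1.37 for Gfap. Groups did not overlap for 4 of the 10, the 3 that rose and Cd44, each with GFP-GR100 on top. Over all tested genes GFP-GR100 lay wholly above GFP for 5.03% and wholly below for 3.03%. An unadjusted p under 0.05 was reached by 5 genes above 0 and 0 below, beside 8.23% and 7.37% of all tested genes. The 3 genes that rose did so by 1.97-fold to 2.59-fold, and the values of 6 genes overlapped between the groups.

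**Figure D1:**
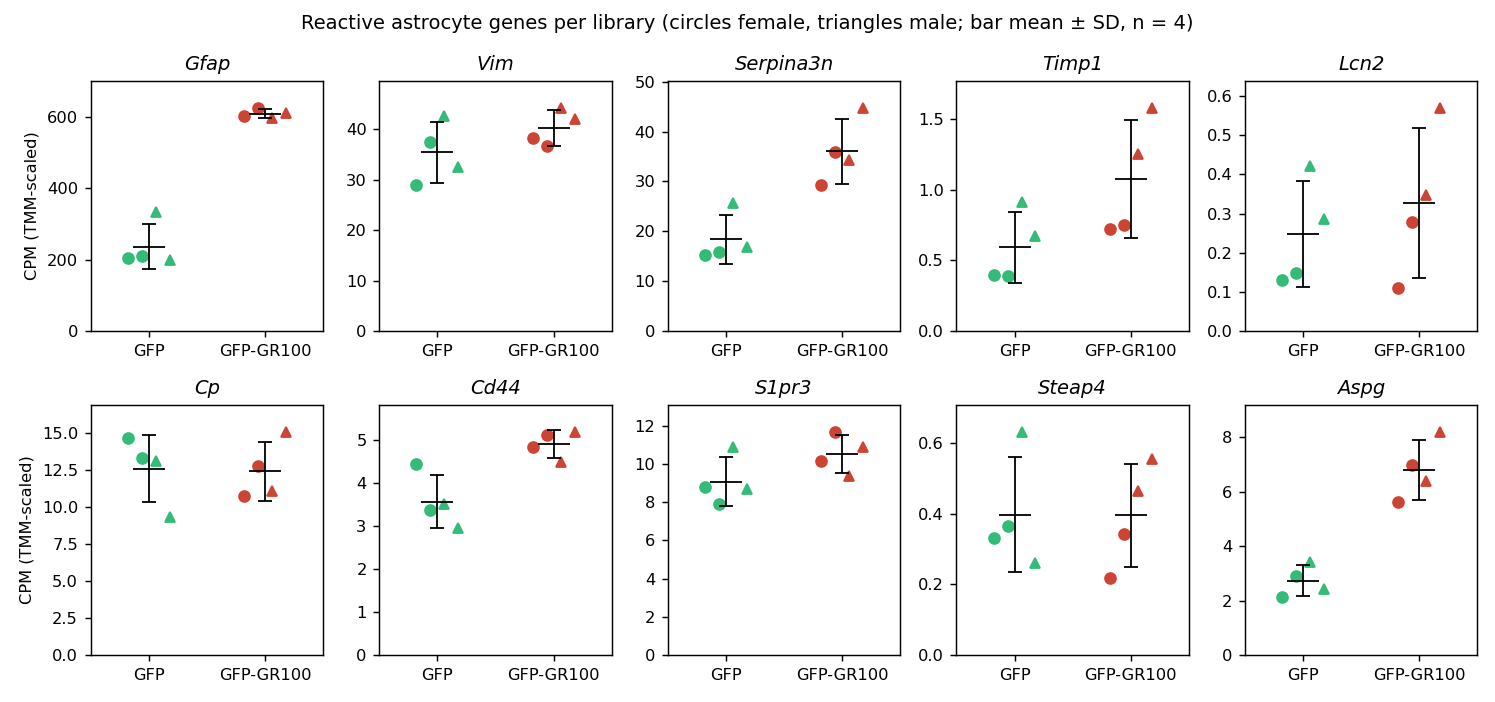
CPM of each gene in each library (vertical axis, starting at 0) by group. Females are circles, males are triangles, and the bar marks mean ± SD (n = 4). The GFP-GR100 points of Gfap, Serpina3n, Aspg and Cd44 lie above all GFP points, and those of the other 6 genes overlap with them.

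The 2 filament genes behaved differently. Gfap, the main intermediate filament protein of astrocytes, lies on chromosome 11 from 102887336 to 102900912 (mm10, minus strand). It was at 206, 209, 332 and 199.9 CPM in GFP 1 to 4 and at 603, 625, 596 and 609.6 CPM in GFP-GR100 1 to 4. The 4 GFP-GR100 libraries were close to each other, while GFP 3 lay well above the other 3 GFP libraries, and the groups did not overlap. The mean rose from 236.8 ± 63.8 to 608.4 ± 12.4 CPM (SD, n = 4), which is 2.59-fold (log2 fold change 1.37, SE 0.15, adjusted p = 0.000475 by edgeR). Without GFP 3 the log2 fold change was 1.60. The coefficient of variation was 26.9% in GFP and 2.04% in GFP-GR100. The whole span of Gfap lies within that of Gm26668, a long noncoding RNA gene on the other strand, which had 314 to 709 counts per library against 12490 to 55049 for Gfap.

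Vim, or vimentin, the filament protein of immature and reactive astrocytes and of many mesenchymal cells, was at 28.9, 37.5, 42.7 and 32.5 CPM in GFP 1 to 4 and 38.2, 36.6, 44.3 and 42.1 CPM in GFP-GR100 1 to 4. The groups overlapped, with GFP 3 above 3 of the 4 GFP-GR100 libraries. The log2 fold change was 0.19 (SE 0.11, adjusted p = 0.411 by edgeR), with a 95% interval of the model from -0.04 to 0.41. That interval, which like the others below is for the gene alone and not adjusted for the number of genes, lies below the interval of Gfap, from 1.05 to 1.69. Nes, or nestin, another filament protein of reactive and immature glia, was at 9.28 ± 2.17 and 10.3 ± 2.0 CPM (log2 fold change 0.17, adjusted p = 0.648 by edgeR). Of the 7 filament genes and filament partners listed, Gfap was the 1 that passed.

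Of the 2 secreted protease inhibitors, 1 passed the test. Serpina3n, which blocks serine proteases, lies on chromosome 12 from 104406729 to 104414329. It was at 15.3, 15.8, 25.7 and 16.8 CPM in GFP 1 to 4 and at 29.2, 35.8, 34.3 and 44.7 CPM in GFP-GR100 1 to 4. The groups did not overlap, though GFP 3 came close to GFP-GR100 1. The mean rose from 18.4 ± 4.88 to 36.02 ± 6.46 CPM, or 1.97-fold (log2 fold change 0.98, SE 0.14, adjusted p = 0.00257 by edgeR), and the log2 fold change was 1.15 without GFP 3. Serpina3n belongs to a cluster of near-identical copies among which reads could be split. Of the 11 copies listed, 3 had enough counts to be tested and Serpina3n was the 1 called. The next most abundant, Serpina3g, was at 0.473 to 0.973 CPM in GFP and 0.613 to 1.29 CPM in GFP-GR100, so that the counts of the cluster were mostly assigned to Serpina3n.

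Timp1, an inhibitor of matrix metalloproteases, was at 0.396, 0.392, 0.910 and 0.670 CPM in GFP 1 to 4 and at 0.723, 0.748, 1.25 and 1.58 CPM in GFP-GR100 1 to 4. In both groups the 2 males lay above the 2 females, and within each sex both GFP-GR100 values lay above both GFP values. The log2 fold change of 0.87 (SE 0.22, interval from 0.39 to 1.34) had an adjusted p of 0.0643 by edgeR and did not pass. Timp1 passed in some other fits. Its interval also holds the log2 fold change of Serpina3n, 0.98, so the changes of these 2 inhibitors could not be told apart in size. Timp1 passed with DESeq2 (adjusted p = 0.0358), with limma on RPKM (0.0165), with edgeR and no filter on low counts (0.0221) and with the ribosomal RNA share as a covariate (0.0498). Timp1 lies on the X chromosome from 20870166 to 20874735, wholly inside Syn1, a neuronal gene on the other strand. Syn1 had 25824 to 44066 counts per library and Timp1 24 to 108. This overlap is one of whole gene spans, and exons were not compared. The kit kept strand, but strand use in counting is not given in the sources used here. It is therefore not known whether reads of Syn1 entered the Timp1 counts. The other inhibitors of the family were more abundant and did not pass, with Timp2 at 312.7 ± 8.55 and 332 ± 11.6 CPM, Timp3 at 101.5 ± 8.25 and 91.4 ± 5.52 CPM and Timp4 at 29.8 ± 6.66 and 27.0 ± 5.87 CPM (log2 fold changes 0.09, -0.15 and -0.13). Of 9 tested inhibitors and proteases 0 passed by edgeR or limma-voom. Timp1 was the 1 gene with an unadjusted p under 0.05 and the 1 that DESeq2 and limma on RPKM called.

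The 3 genes that handle iron and copper did not pass. Lcn2, or lipocalin 2, which binds bacterial iron carriers, held 8 to 38 counts in the GFP and 10 to 39 counts in the GFP-GR100 libraries. It was at 0.132, 0.149, 0.422 and 0.285 CPM in GFP 1 to 4 and at 0.109, 0.279, 0.349 and 0.570 CPM in GFP-GR100 1 to 4. Its interval for the log2 fold change, from -0.44 to 1.24, holds both no change and a rise as large as that of Serpina3n, so that such a rise could not be told from none at this depth. Steap4, which reduces iron and copper at the membrane, was at 0.330, 0.365, 0.633 and 0.261 CPM in GFP 1 to 4 and at 0.219, 0.342, 0.465 and 0.555 CPM in GFP-GR100 1 to 4, with an interval from -0.81 to 0.71.

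Cp, or ceruloplasmin, a copper-bound enzyme that oxidises iron for export, was measured more deeply, with 750 to 1178 counts per library. It was at 14.6, 13.3, 13.1 and 9.31 CPM in GFP 1 to 4 and at 10.7, 12.8, 11.04 and 15.1 CPM in GFP-GR100 1 to 4. Its values overlapped almost fully, and its interval, from -0.35 to 0.32, lies below those of the 3 genes that rose. Hps3, on the other strand, overlaps 25.3% of the span of Cp, and had 968 to 1575 counts per library. In the same libraries all 12 listed markers of the choroid plexus, which also makes Cp, had a log2 fold change below 0, with 3 called lower by edgeR, 10 by DESeq2 and 4 by both limma fits, and a median of -1.68. Their summed level ran from 131.7 to 376.9 CPM in GFP and from 34.6 to 92.0 CPM in GFP-GR100. Their part in the value of Cp was not tested.

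Of 13 tested genes of iron and copper handling 0 rose and 1 fell. That 1 was Steap1, a member of the family of Steap4, at 0.771 ± 0.516 CPM in GFP and 0.186 ± 0.0617 CPM in GFP-GR100 (log2 fold change -2.00, SE 0.46, adjusted p = 0.0428 by edgeR). The call was lost in 9 of 16 alternatives, where the adjusted p reached 0.165. Without GFP 3 the log2 fold change of Steap1 was -1.35 (adjusted p = 0.122 by edgeR), so that the size of the difference rested in part on that library. Steap2, at 14.8 ± 2.16 and 13.8 ± 4.33 CPM, and Steap3, at 6.10 ± 0.882 and 5.90 ± 0.923 CPM, did not pass.

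The 2 surface receptors lay between these extremes. Cd44, which binds hyaluronan and osteopontin, was at 4.44, 3.36, 3.51 and 2.97 CPM in GFP 1 to 4 and at 4.85, 5.12, 4.48 and 5.20 CPM in GFP-GR100 1 to 4. The groups did not overlap, with GFP-GR100 3 just above GFP 1. Its log2 fold change of 0.47 (SE 0.14, interval from 0.16 to 0.78) had an adjusted p of 0.132 by edgeR and did not pass, while DESeq2 gave 0.0474. Of Cd44 and the tested genes of its ligands and of hyaluronan turnover, 9 in all, 0 passed by edgeR or limma, and 3 had an unadjusted p under 0.05, 2 above 0 and 1 below. DESeq2 called Cd44 higher and Tnfaip6 lower. Beside Cd44, the smallest p by edgeR was that of Tnfaip6, a hyaluronan-binding protein, at 10.1 ± 1.17 and 7.39 ± 0.751 CPM (adjusted p = 0.0891 by edgeR).

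S1pr3, a receptor of sphingosine 1-phosphate, was at 8.77, 7.89, 10.9 and 8.71 CPM in GFP 1 to 4 and at 10.2, 11.7, 9.36 and 10.9 CPM in GFP-GR100 1 to 4. The overlap came from GFP 3, and without that library all GFP-GR100 values lay above all GFP values, yet the test was still not passed (adjusted p = 0.181 by edgeR). With all libraries the log2 fold change was 0.22 (SE 0.12, adjusted p = 0.405 by edgeR). S1pr1 was the most abundant receptor of the family at 133.6 ± 10.3 and 127.4 ± 5.04 CPM. The log2 fold changes of S1pr1, S1pr2, S1pr4 and S1pr5 were -0.07, -0.31, -0.40 and -0.08, and none passed. Of 10 tested genes of the sphingosine 1-phosphate pathway 0 passed by edgeR or limma-voom, with 1 above and 1 below 0 at an unadjusted p under 0.05. The nearest was Sgpl1, the lyase that breaks the lipid down, at 31.0 ± 2.57 and 38.8 ± 2.33 CPM (adjusted p = 0.0512 by edgeR), which passed in 7 of 17 alternatives, DESeq2 and limma on RPKM among them.

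Aspg, an asparaginase also found in reactive astrocytes, lies on chromosome 12 from 112106683 to 112127573. It was at 2.14, 2.92, 3.43 and 2.41 CPM in GFP 1 to 4 and at 5.61, 7.0, 6.41 and 8.21 CPM in GFP-GR100 1 to 4. Every GFP-GR100 library was well above GFP 3, the highest of the GFP libraries. The mean rose from 2.72 ± 0.570 to 6.81 ± 1.10 CPM, or 2.49-fold (log2 fold change 1.32, SE 0.17, adjusted p = 0.000806 by edgeR). A microRNA gene inside Aspg, Mir3073a, had 0 counts in all libraries.

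**Figure D2:**
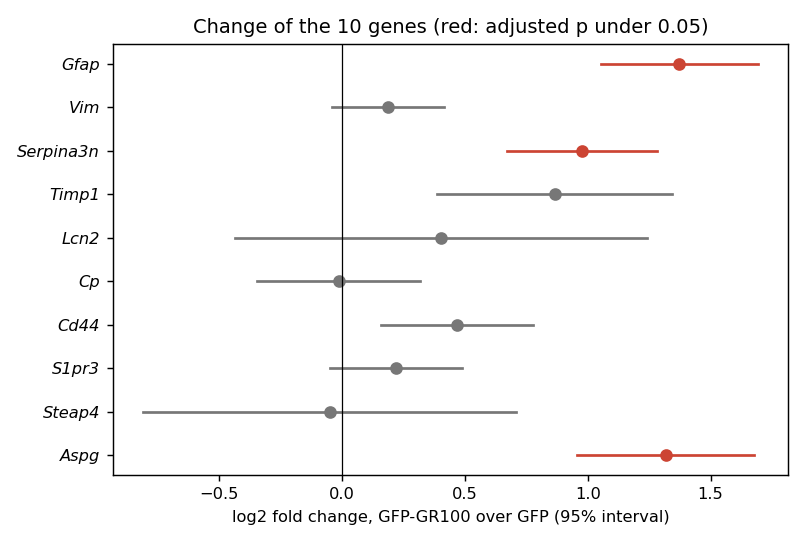
Log2 fold change (GFP-GR100 against GFP, horizontal axis) for each gene, with its 95% interval from the edgeR model. Gfap, Aspg and Serpina3n, in red, passed the test at 1.37, 1.32 and 0.98, and the intervals of Lcn2 and Steap4 are the widest.

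Levels of different genes were compared per length with the deposited RPKM values (counts divided by the listed gene length and the library total). In GFP libraries Gfap was highest at 55.1 ± 16.4 RPKM, followed by Serpina3n at 8.76 ± 2.59, Vim at 7.32 ± 1.47, S1pr3 at 1.98 ± 0.329, Cp at 1.28 ± 0.207, Aspg at 0.979 ± 0.234, Timp1 at 0.657 ± 0.297, Cd44 at 0.512 ± 0.0699, Steap4 at 0.124 ± 0.0545 and Lcn2 at 0.0932 ± 0.0537. Neighbours whose values overlapped over libraries were Serpina3n and Vim, Cp and Aspg, Aspg and Timp1, Timp1 and Cd44, and Steap4 and Lcn2. In GFP-GR100 libraries Gfap was at 147.6 ± 5.42 RPKM, Serpina3n at 17.8 ± 3.17 and Vim at 8.68 ± 0.607, with no overlap between these 3. Aspg, at 2.55 ± 0.411 RPKM, stood above S1pr3 (2.41 ± 0.265) and Cp (1.33 ± 0.217) in the order of means, though its values overlapped with those of S1pr3. Lcn2 and Steap4 remained lowest, at 0.127 ± 0.0735 and 0.128 ± 0.0464 RPKM.

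General astrocyte markers gave a second scale. All 22 listed markers, among them the glutamate transporters Slc1a2 and Slc1a3 and the water channel Aqp4, were tested, so that astrocyte RNA was plainly present. By edgeR 0 of these passed. An unadjusted p under 0.05 was reached by 3 above 0 and 1 below, and their median log2 fold change was 0.03. DESeq2 and both limma fits also called 0 of them. Sox9, an astrocyte transcription factor and the marker with the smallest p, was at 22.4 ± 2.01 and 27.4 ± 2.66 CPM (adjusted p = 0.144 by edgeR). Their summed level ran from 7651 to 7911 CPM in GFP and from 6739 to 8368 CPM in GFP-GR100. For each 1000 CPM of this sum, Gfap was at 26.9, 26.6, 42.3 and 25.3 CPM in GFP 1 to 4 and at 76.0, 74.7, 88.5 and 76.8 CPM in GFP-GR100 1 to 4, with group means 2.61-fold apart. On this scale the groups again did not overlap for Gfap, Serpina3n, Aspg and Cd44 and overlapped for the other 6. Since the sum differed little between libraries, this scale stays close to TMM scaling, and the same split is no separate check. The share of all tested genes without overlap was not taken on this scale.

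Within each group a few libraries held most of the highest values of the 10 genes, a pattern described here without a test. GFP 3 had the highest value of its group for 8 of the 10 genes, and for 35% of all tested genes, with a median deviation from the group mean of 0.43 on the log2 scale. GFP-GR100 4 was highest for 7 of the 10 and for 31.8% of all tested genes, with a median deviation of 0.29, and GFP-GR100 1 was lowest for 6 of the 10 and for 23.1% of all. Gfap itself did not follow this order within GFP-GR100, where its deviations ran from -0.03 to 0.04, while those of Lcn2 ran from -0.91 to 0.77. GFP 3 was also the highest GFP library for the summed microglial markers (561.4 CPM against 418.7 to 440.7), the summed choroid plexus markers (376.9 CPM against 131.7 to 314.3) and the summed monocyte and neutrophil markers (14.6 CPM against 9.47 to 10.04). The same library was highest in GFP for the sums of oligodendrocyte markers (8838 CPM against 6736 to 7566), ependymal markers (48.9 CPM against 28.5 to 36.8) and endothelial markers (320 CPM against 260.4 to 290.9). GFP-GR100 4 had the lowest sum of neuronal markers of all 8 libraries (9175 CPM against 10595 to 11718). Its sum of oligodendrocyte markers, 8553 CPM, exceeded the 5529 to 6036 CPM of the remaining libraries of its group. It was also the highest of its group for endothelial (325.0 CPM), mural (255.0 CPM), meningeal (191.7 CPM) and monocyte and neutrophil markers (27.5 CPM). Their part in the deviations was not tested.

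**Figure D3:**
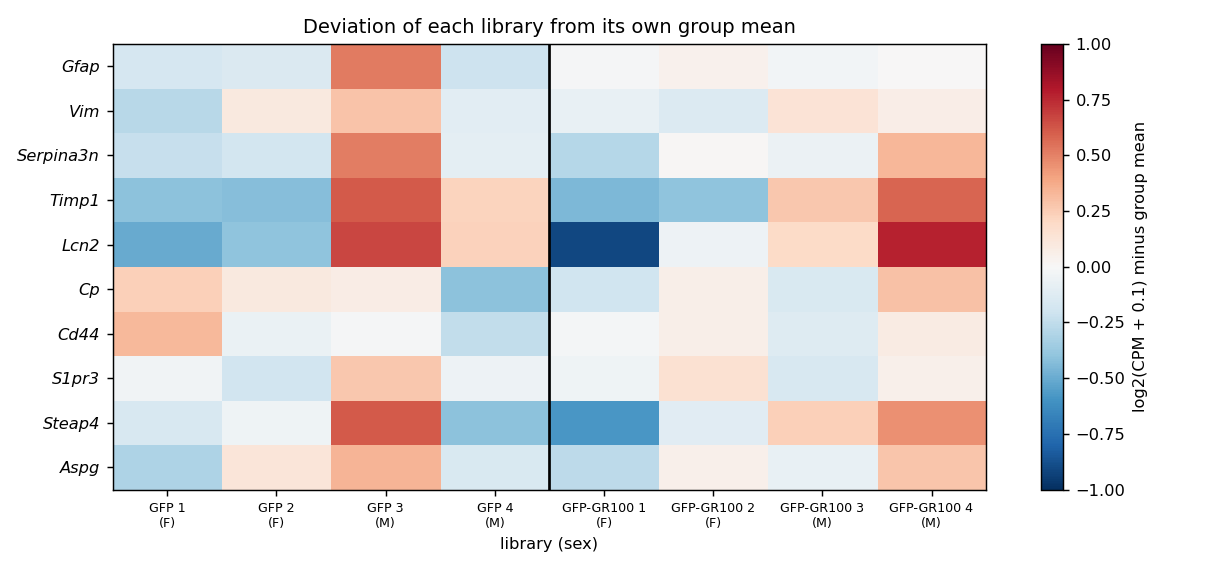
Deviation of each library from the mean of its own group, as log2(CPM + 0.1), for the 10 genes (rows) and 8 libraries (columns, with sex). GFP 3 is red in most rows and GFP-GR100 4 in most rows of its group, while the GFP-GR100 values of Gfap stay near 0.

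GFP 3 was the highest GFP library for each of the 3 genes that rose. Leaving it out could therefore only widen their differences, and is no check of their calls. In the fit without GFP 3 all 3 were called, with adjusted p of 3.25e-06 for Gfap, 0.000126 for Serpina3n and 0.000476 for Aspg by edgeR. Without that library the groups did not overlap for 7 of the 10 genes in place of 4, with Vim, Timp1 and S1pr3 added. Such a count can rise but hardly fall when a library is left out. Over all genes tested with these 7 libraries GFP-GR100 lay wholly above GFP for 8.76% and wholly below for 4.88%, both larger shares than with all 8. Without GFP 3 the log2 fold change was 1.45 for Aspg, 1.00 for Timp1, 0.58 for Lcn2, 0.52 for Cd44, 0.35 for S1pr3, 0.29 for Vim, 0.21 for Steap4 and 0.06 for Cp, so that each of these 8 was higher than with it. None of the last 7 passed the edgeR test. The number called stayed at 3 when any single library was left out.

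The group effect was also taken within each sex. The median log2 fold change of the 10 genes was 0.42 in females and 0.47 in males. For Gfap it was 1.56 (SE 0.19) in females and 1.18 (SE 0.19) in males, and for Serpina3n 1.06 (SE 0.21) and 0.89 (SE 0.20). For Aspg it was 1.31 (SE 0.24) and 1.32 (SE 0.23). The difference between the sexes passed for 0 of the 10 genes, and for 0.0524% of all tested genes, by edgeR, and for 0 of the 10 at an unadjusted p under 0.05. The largest differences, male minus female, were 0.50 (SE 0.69) for Steap4 and 0.47 (SE 0.27) for Cp, so that with 2 animals of each sex and group differences of this size could not be resolved. The share of counts at ribosomal RNA loci also ran with sex, in opposite directions in the groups. In GFP it was 11.4% and 6.74% in females and 3.80% and 3.54% in males. In GFP-GR100 it was 3.20% and 2.76% in females and 8.77% and 9.83% in males. A difference of the group effect between sexes therefore cannot be told apart from an effect of this share.

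Timp1 differed by sex itself, a comparison made after its values were seen. Males were higher by 0.97 on the log2 scale (SE 0.22, adjusted p = 0.0426 by edgeR), and it was the 1 of the 10 genes called for sex, beside 4.18% of all tested genes. The call was kept in 2 of the 8 fits that left out 1 library, without GFP 4 or GFP-GR100 4, where the log2 difference ran from 0.87 to 1.05 over all 8 and the adjusted p from 0.0311 to 0.134. Syn1, which encloses it, is on the same chromosome and the limit on strand given above holds here too.

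The other genes of the pan-reactive set and of the pathway were counted from lists of known genes. The remaining 3 pan-reactive genes were Osmr, Cxcl10 and Hspb1. Osmr, the receptor subunit for oncostatin M, was at 4.42, 3.26, 3.85 and 3.35 CPM in GFP 1 to 4 and at 6.83, 8.57, 7.01 and 7.67 CPM in GFP-GR100 1 to 4. It rose without overlap (log2 fold change 1.02, SE 0.14, adjusted p = 0.00135 by edgeR). Cxcl10 and Hspb1 are named after their values were seen. Cxcl10, a chemokine induced by interferon, was at 1.85, 0.446, 3.25 and 0.298 CPM in GFP 1 to 4 and at 13.9, 16.4, 16.3 and 17.3 CPM in GFP-GR100 1 to 4. Its GFP values differed widely among themselves and lay below all GFP-GR100 values. DESeq2 and both limma fits called it higher, but its adjusted p was 0.110 by edgeR. The small heat shock protein Hspb1 was at 2.23 to 5.03 CPM in GFP and 1.70 to 3.16 CPM in GFP-GR100 (log2 fold change -0.68, adjusted p = 0.0853 by edgeR), and DESeq2 called it lower.

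Of 19 tested genes of gp130 and STAT3 signalling 2 rose and 0 fell, with a median log2 fold change of 0.12. The 2 were Osmr and Il6ra, the interleukin-6 receptor, which rose from 3.73 ± 1.11 to 5.88 ± 1.07 CPM (log2 fold change 0.69, adjusted p = 0.00888 by edgeR), a call lost when sex was left out of the model (adjusted p = 0.216). Stat3 was at 47.2, 50.1, 49.3 and 51.8 CPM in GFP 1 to 4 and at 63.5, 64.0, 48.9 and 52.9 CPM in GFP-GR100 1 to 4. The 2 female GFP-GR100 libraries stood above the rest, and also had the lowest shares of ribosomal RNA counts of all libraries (3.20% and 2.76%). Sex and this share cannot be told apart within GFP-GR100. Stat3 did not pass (adjusted p = 0.318 by edgeR), nor did it with the share as a covariate (adjusted p = 0.127 by edgeR). Socs3, a feedback inhibitor that STAT3 induces, was at 3.38, 3.73, 3.19 and 3.47 CPM and at 3.92 to 4.81 CPM, without overlap, but did not pass (log2 fold change 0.32, adjusted p = 0.253 by edgeR). Il6st, which encodes gp130, was at 82.5 ± 12.1 and 81.6 ± 6.35 CPM.

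Astrocyte states named A1 and A2, after inflammatory and ischaemic injury, were counted with the genes commonly listed for each. Of 12 A1 genes 2 rose and 0 fell, with a median log2 fold change of 0.70. Ggta1, a galactosyltransferase, rose from 4.04 ± 0.305 to 7.85 ± 0.973 CPM and H2-T23, a class I histocompatibility gene of a family with similar copies, from 18.4 ± 5.26 to 32.5 ± 4.08 CPM (adjusted p = 0.00135 and 0.00695 by edgeR). DESeq2 called 6 and both limma fits 5 of the A1 genes higher. Interferon induces several of them, among them H2-D1, Gbp2, Iigp1 and Psmb8. Of 11 tested A2 genes 1 rose and 0 fell, with a median of -0.13. That gene was Cd14, a co-receptor for bacterial lipopolysaccharide that microglia also make, which rose from 2.43 ± 0.702 to 5.24 ± 0.419 CPM (adjusted p = 0.00555 by edgeR). The difference between the 2 lists was not tested.

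**Figure D4:**
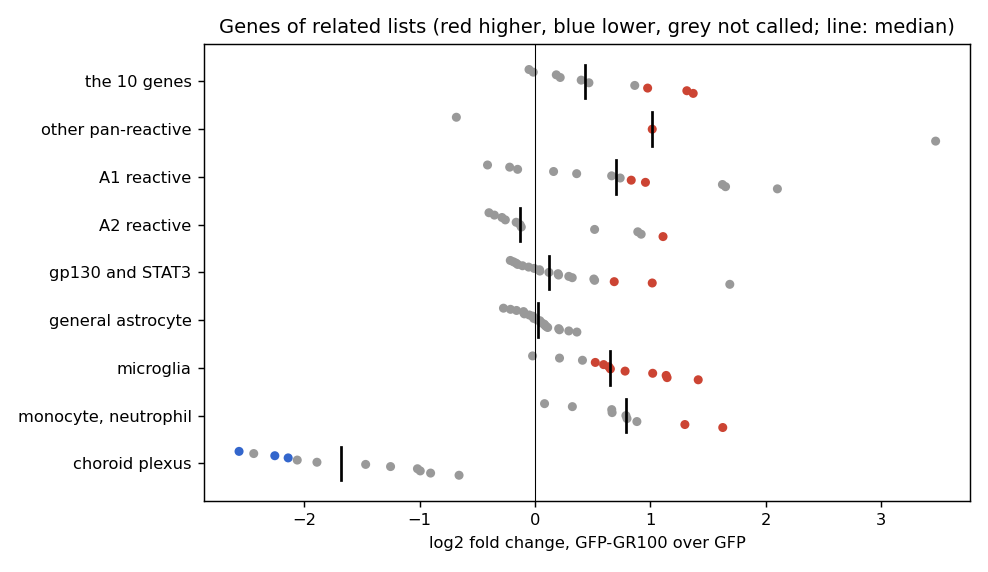
Log2 fold change (GFP-GR100 against GFP, horizontal axis) for the tested genes of 9 lists, 1 point per gene, with red for called higher, blue for called lower, grey for not called and a line at the list's median. The 22 general astrocyte markers centre on 0.03 and the 12 microglial markers on 0.65, while the 10 genes spread from -0.05 to 1.37.

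Markers of other cell types moved in the same comparison. Of 12 microglial markers 9 rose and 0 fell, with summed levels of 418.7 to 561.4 CPM in GFP and 698.5 to 781.0 CPM in GFP-GR100, and Trem2, a microglial lipid receptor, had the smallest p (log2 fold change 1.42, adjusted p = 2.48e-05 by edgeR). Of 9 tested genes listed as markers of monocytes and neutrophils 2 rose, led by Csf3r (log2 fold change 1.30), with sums of 9.47 to 14.6 and 18.1 to 27.5 CPM. Which cells of the tissue made these transcripts was not tested. Of 10 markers each of endothelium, mural cells and meningeal fibroblasts 0 passed by edgeR, with 2, 1 and 0 above and 2, 3 and 4 below 0 among those of unadjusted p under 0.05. DESeq2 called 2, 1 and 0 of them higher and 0, 2 and 2 lower, limma-voom called Acta2 lower, and limma on RPKM called 0. The smallest p belonged to Kdr, Acta2 and Aldh1a2 (adjusted p = 0.0853, 0.0538 and 0.0514 by edgeR). The endothelial sums overlapped, at 260.4 to 320.0 and 256 to 325.0 CPM. Of 10 ependymal markers 3 fell, among them Ccdc153 (log2 fold change -1.58), and their sums were 28.5 to 48.9 and 24.2 to 28.5 CPM. Of 10 oligodendrocyte markers the myelin gene Mal fell (log2 fold change -0.56), a call lost in 1 of 17 alternatives. All 10 had a log2 fold change below 0, 5 of them at an unadjusted p under 0.05, and DESeq2 called Mog, Cnp and Mal lower, while both limma fits called Mal alone. Of 12 neuronal markers 0 passed by edgeR, DESeq2 or limma, with 2 below 0 at an unadjusted p under 0.05 and Tubb3 nearest (adjusted p = 0.174 by edgeR). No marker of these 9 cell types or of astrocytes was at 0 in all libraries. The part of these cells in the values of the 10 genes was not tested.

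Genes with a pattern most like that of Gfap were found by a root mean square difference over the 8 libraries. It was taken on log2(CPM + 0.1) less the GFP mean. The search covered 13782 tested genes with a mean of at least 1 CPM, leaving out the members of the set, gene models and clone names. The 5 nearest were Lgals9 (0.101), a sugar-binding immune protein, Trem2 (0.120), Tor3a (0.138), Irf8 (0.141), a transcription factor of myeloid cells, and Ptpn6 (0.158), a phosphatase of blood cells. Lgals9 was at 5.90, 5.23, 8.99 and 6.12 CPM in GFP 1 to 4 and at 15.3, 17.0, 17.8 and 17.9 CPM in GFP-GR100 1 to 4. Like Gfap, all 5 had their highest GFP value in GFP 3, and all 5 rose, with log2 fold changes from 1.26 to 1.42. The measure rewards a rise of the same size and a like course over the libraries, the high value in GFP 3 included. It describes the pattern only.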

How the data were processed

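Each of 8 mice gave 1 total RNA library of cortex and hippocampus, made with a kit that keeps strand and read from both ends, per the labels' protocols. The deposited table holds raw counts per gene, and the authors' RPKM values beside them. The submitters' processing notes name CASAVA, TopHat2 version 2.1.0, DESeq2, R version 3.4.1 and the mm10 build. The gene counter, the annotation release and strand use are steps not given in the sources used here. Replicate numbers follow accession order and pair no animals. The members and lists were chosen with earlier results of these data known.

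The fit of the counts used edgeR version 4.0.16 (R version 4.3.3). Low genes were removed by filterByExpr (minimum count 10, minimum total 15), which left 20987 of 43346. After TMM scaling, the robust quasi-likelihood test took group as the effect and sex as a covariate. The standard error is the log2 fold change divided by the root of its F statistic, and intervals use the model's degrees of freedom. CPM are given as mean ± SD. Effects by sex came from a fit that added the product of the 2 terms.

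Lists were matched by deposited symbol. Tf was not matched, and Cfap126 was matched by its GENCODE M21 symbol. The text names the 10 members and the called genes of each pathway list with the smallest p, up to 3, or the gene with the smallest p where none was called. It also names set members of the Timp, S1pr, Steap and gp130 families, 1 gene per cell type list and the 5 genes most like Gfap. Strand and overlap came from GENCODE M21 on the same build. Alternatives were DESeq2 version 1.42.0, limma version 3.58.1 (voom on counts, and trend on log2(RPKM + 0.1)), size factors by median of ratios, a mean of at least 1 CPM, no filter, no sex covariate and leaving out each library. Chosen after seeing the data were a fit without both GFP 3 and GFP-GR100 4, and one whose covariate was the share of counts at the ribosomal RNA loci Yam1, AY036118 and Lars2. On simulated data for GFP-GR100 against GFP, over 20987 genes, 90% of 100 genes changed by 1 on the log2 scale were called. Of 100 genes changed by 2, 98% were called. Beside them stood 10 false calls at either size. Counts limit the precision for counting error only, since reads without molecular identifiers are not independent molecules.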

Additional observations from a re-analysis of the deposited data

Results flagged for a closer look

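GFP 3 stood apart from the other GFP libraries for 2 of the 10 genes, in that its gap to the nearest library was a large part of the range of the group. Gfap was at 332 CPM in GFP 3 and between 199.9 and 209 CPM in the other 3, with the gap taking 0.93 of the range. Serpina3n was at 25.7 CPM in GFP 3 and between 15.3 and 16.8 CPM in the others, with the gap taking 0.855 of the range. The 10 genes in 2 groups gave 20 such checks, and chance marks about 1 in 20. Both values come from the same library, so they are not independent of each other.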

How the results depend on the processing

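The 3 calls of Gfap, Serpina3n and Aspg held in all 17 alternatives, with log2 fold changes from 1.30 to 1.60, 0.91 to 1.15 and 1.24 to 1.45. The number of the 10 genes called higher was 5 with DESeq2, where Cd44 and Timp1 were added, and 3 or 4 otherwise, and 0 were called lower in any alternative. The median log2 fold change of the 10 ran from 0.31 to 0.57. The number whose groups did not overlap ran from 4 to 7 when a library was left out, and was 7 without both GFP 3 and GFP-GR100 4. Over all genes 460 rose and 68 fell in the report, against 724 and 200 with DESeq2, 503 and 30 with limma on RPKM, 1168 and 361 with no filter, 442 and 36 with the 1 CPM filter, 378 and 35 without the sex covariate, 656 and 226 with the ribosomal RNA share, 579 and 115 without both GFP 3 and GFP-GR100 4, and 304 to 514 and 19 to 77 when a library was left out, lowest without GFP-GR100 2. Of the 45 named genes 26 kept direction and call in all alternatives run, and 8 changed direction in at least 1. None of these 8 was called in any of them. The cause of these changes was not tested. The log2 fold change of Cp, -0.0146 in the report, was 0.0486 with limma on RPKM, 0.0257 with the 1 CPM filter and -0.16 to 0.11 when a library was left out. Il6st, at -0.00701, had 0.00125 with DESeq2, 0.0587 with limma on RPKM, 0.00126 with median-of-ratios size factors, 0.00693 with no filter, 0.0324 with the 1 CPM filter and -0.0721 to 0.0384 when a library was left out. Nes, at 0.17, had -0.0239 without both GFP 3 and GFP-GR100 4. S1pr1, at -0.0658, had 0.000858 with limma on RPKM and -0.0892 to 0.0033 when a library was left out. S1pr5, at -0.0756, had -0.24 to 0.0673 when a library was left out. Steap2, at -0.11, had -0.37 to 0.0200 when a library was left out. Steap3, at -0.0611, had 0.013 with limma on RPKM, 0.11 without both GFP 3 and GFP-GR100 4 and -0.17 to 0.0581 when a library was left out. Steap4, at -0.0513, had 0.0105 with limma-voom, 0.0323 with limma on RPKM, 0.11 without both GFP 3 and GFP-GR100 4 and -0.29 to 0.21 when a library was left out. Cd44 and Timp1 are the genes of the set whose call depends on the tool. Lcn2, Steap4 and Timp1, with at most 39, 57 and 108 counts in a library, did not reach a mean of 1 CPM and were not tested under that filter. No paired analysis was possible because the labels give no replicate numbers that groups share.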
